A study of Mus musculus with 2 samples.

Results

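The dual-specificity phosphatases of MAPK signalling were examined in cultured effector CD8+ T cells of the mouse, with RNA taken after the first and after the second stimulation. The genes were chosen by name: Dusp1, Dusp2, Dusp4, Dusp5, Dusp6 and Dusp10. A probe was taken where the array's annotation gave it exactly 1 gene symbol equal to one of these names and where both arrays held a value. By that rule 5 of the 6 genes were measured, each by 1 probe, so 5 of 21427 probes with both values are described, and these stand for 5 of 14150 genes. Dusp5 had no probe under the rule and is not analysed here.

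The cells came from the pmel mouse, a transgenic strain in which CD8+ T cells recognise gp100, a melanocyte protein. Both groups share that transgene and the culture, and they differ in the labels by the number of stimulations, pmel CD8+ post stim 1 in channel 1 and pmel CD8+ post stim 2 in channel 2. Each 2-colour microarray received total RNA of both stages, and there are 2 arrays, the second labelled as a repeat. The stages sit in the same channels on both arrays. An effect of the channel therefore cannot be told apart from one of the stage, even where the arrays agree. The labels give no age, dose, stimulus or time after stimulation, and leave unsaid if cells were cultured anew for the repeat or one RNA was hybridised again. Errors and p-values therefore reflect the spread of 2 arrays alone, possibly a technical one.

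MAP kinases (ERK, JNK and p38) carry the signal of the T cell receptor to the nucleus and are switched on by phosphorylation of a threonine and a tyrosine in their activation loop. Dual-specificity phosphatases of this family remove both phosphates and so end the signal. Many of their genes are themselves switched on by MAP kinase activity, which makes them part of a negative feedback loop. Dusp1, Dusp2, Dusp4 and Dusp5 encode nuclear enzymes that are induced early after activation, Dusp6 encodes a cytoplasmic enzyme selective for ERK, and Dusp10 encodes an enzyme acting mainly on JNK and p38.

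Each value is a probe's log2 ratio between the channels. Neither the labels nor the table name the numerator. The order of the titles and channels makes 1 stimulation over 2 likely, so that negative values would mean more RNA after the second stimulation. With the opposite order every side given here swaps. Base 2 was assumed, and read as natural logs each fold would be larger. Spot intensities were not used here, which leaves the signal level of each probe unknown, and precision is limited by there being 2 arrays. In a ratio of bulk RNA, fewer cells of a type and less RNA per cell cannot be told apart.

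The promoter sequences of Dusp1 and Dusp6 are shown because these were the members at least 2-fold from a ratio of 1 on array 1, and on array 2 Dusp1 lay on the other side of 0. Each sequence holds the 250 bases before the gene's start on the gene's strand, 5′ to 3′, from RefSeq on GRCm38.p6, where 5 of the 6 genes had an entry. The gene without an entry was Dusp4, so its promoter could not be shown. The capitals mark TGACGTCA, the cyclic AMP response element, and CACGTG, the E-box. Dusp1 is at chr17:26508473-26508722 on the minus strand, and Dusp6 is at chr10:99262981-99263230 on the plus strand.
Dusp1: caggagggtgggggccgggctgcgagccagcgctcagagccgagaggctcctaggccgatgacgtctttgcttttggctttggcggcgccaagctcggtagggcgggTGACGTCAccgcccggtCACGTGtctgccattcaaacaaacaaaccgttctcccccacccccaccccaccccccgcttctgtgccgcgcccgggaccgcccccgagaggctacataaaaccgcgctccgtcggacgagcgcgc
Dusp6: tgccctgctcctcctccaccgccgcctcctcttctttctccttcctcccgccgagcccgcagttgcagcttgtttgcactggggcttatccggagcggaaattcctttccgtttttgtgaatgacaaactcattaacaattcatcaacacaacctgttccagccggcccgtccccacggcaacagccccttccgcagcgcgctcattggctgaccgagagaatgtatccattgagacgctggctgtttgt

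Both motifs were searched on both strands, and each reads the same on either strand. The Dusp1 window held 1 TGACGTCA, which began 143 bases before the start, and 1 CACGTG, which began 126 bases before it. Of 32851 such windows in the RefSeq table, 1.55% held TGACGTCA and 6.02% held CACGTG. The Dusp2 window held 1 CACGTG, 109 bases before the start, and the Dusp5, Dusp6 and Dusp10 windows held neither. The binding site of serum response factor, the CArG box, was found in 1.47% of all windows. The window of Dusp5, which had no probe, held 2 of them, beginning 82 and 72 bases before the start, and those of Dusp1, Dusp2, Dusp6 and Dusp10 held none. A match is a run of letters and not a measured site, and binding was not measured here.

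None of the phosphatase probes was at least 2-fold from a ratio of 1 on both arrays on the same side. Over all probes, 0.275% were so on the positive and 0.579% on the negative side. At 1.5-fold on both arrays the phosphatase count was 0 as well, against 1.74% of all probes on the positive and 2.37% on the negative side. On a single array, 3 of the 5 probes reached 2-fold: Dusp1 and Dusp6 on array 1 and Dusp4 on array 2. The share of all probes at least 2-fold on either side was 2.11% on array 1 and 4.68% on array 2. Dusp4 and Dusp6 were negative on both arrays, Dusp2 and Dusp10 were positive on both, and Dusp1 had opposite signs. The median of the 5 probes was -0.34 on array 1 and 0.19 on array 2, so the group has no side. Over all probes, 29.3% were negative and 33% positive on both arrays.

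**Figure D1:**
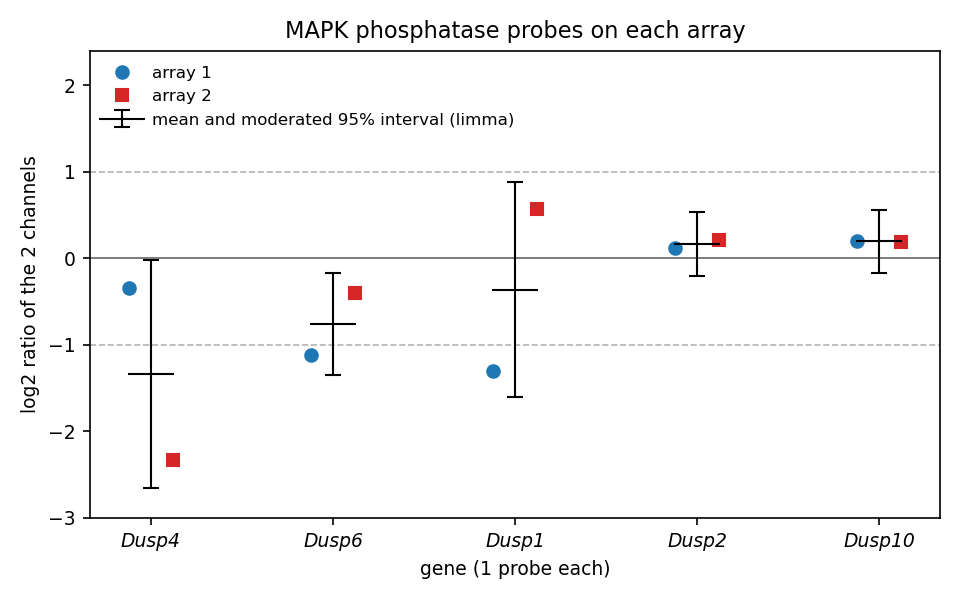
Log2 ratio of the 2 channels for the probe of each measured MAPK phosphatase (vertical axis), with array 1 as circles, array 2 as squares, the mean as a horizontal bar and limma's moderated 95% interval as whiskers; dashed lines mark a 2-fold ratio. Dusp4 and Dusp1 are far apart on the 2 arrays, at -0.34 and -2.33 and at -1.30 and 0.57, while Dusp2 and Dusp10 lie close together just above 0.

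Dusp4, the gene of the nuclear phosphatase MKP-2, which acts on ERK, JNK and p38, gave the lowest mean. Its log2 ratio was -0.34 on array 1 and -2.33 on array 2. Both arrays were on the negative side, but array 1 was a 1.27-fold and array 2 a 5.03-fold difference. The mean was -1.34 ± 1.41 (SD, n = 2), a 2.52-fold difference, with a 95% interval from -2.65 to -0.02 and a limma adjusted p of 0.332. Without moderation the adjusted p of the same test was 0.754. On array 2, 0.191% of all probes lay farther from 0, against 28.8% on array 1.

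Dusp6, the gene of the ERK-selective phosphatase MKP-3, also lay on the negative side. Its log2 ratio was -1.12 on array 1 and -0.40 on array 2, so here array 1 was the farther from 0. The mean was -0.76 ± 0.51 (SD, n = 2), a 1.69-fold difference, with a 95% interval from -1.35 to -0.17 and a limma adjusted p of 0.265. On array 1, 1.39% of all probes lay farther from 0, against 23.9% on array 2.

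Dusp1, the gene of the nuclear phosphatase MKP-1 that is an immediate early gene of stress and mitogen signals, did not keep its side. Its log2 ratio was -1.30 on array 1, a 2.46-fold difference, and 0.57 on array 2, a 1.49-fold difference the other way. The mean was -0.365 ± 1.32 (SD, n = 2), and its 95% interval ran from -1.61 to 0.88 (limma adjusted p of 0.734). Without array 1 the value is 0.57 and without array 2 it is -1.30, so no direction is given for Dusp1.

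Dusp2, the gene of the nuclear phosphatase PAC-1 of lymphoid cells, stayed near a ratio of 1. It read 0.12 and 0.21, with a mean of 0.165 ± 0.064 (SD, n = 2) and a 95% interval from -0.21 to 0.54. Dusp10, the gene of MKP-5, read 0.20 and 0.19, with a mean of 0.195 ± 0.0071 (SD, n = 2) and a 95% interval from -0.17 to 0.56. Both arrays were on the positive side for each of these genes and no array was beyond 1.16-fold. The limma adjusted p was 0.611 for Dusp2 and 0.542 for Dusp10. The interval leaves room for a change of either sign, so these values do not show that either gene was level.

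In limma's moderated test, 0 of the 5 phosphatase probes passed an adjusted p of 0.05, and the share of all 21427 probes that passed was 0%. At an unadjusted p under 0.05 there were 2 of the 5, Dusp4 and Dusp6, where the share over all probes was 14.9%, or 3186 probes. With limma's robust prior the count over all probes was again 0, and without moderation it was 241, with 0 phosphatases among them. Without moderation, 2 equal readings other than 0 can pass at any size, and 248 probes had equal readings. From lowest to highest mean the order was Dusp4, Dusp6, Dusp1, Dusp2 and Dusp10. The 95% intervals of every pair of neighbours in that order overlapped. Of 10 pairs, only Dusp6 and Dusp10 had intervals that did not overlap, a description of the intervals and not a test of the difference.

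The disagreement between arrays was large for a pair of members. The ratio of Dusp1 was 1.87 higher on array 2 than on array 1, and a larger gap in either direction was seen for 0.219% of all probes. The ratio of Dusp4 differed by -1.99 in the same sense, with a larger gap for 0.154% of probes. The gap was 0.72 for Dusp6, which 7.77% of probes exceeded, 0.09 for Dusp2 and -0.01 for Dusp10. Across all probes, which are not independent replicates, Pearson's r between the arrays was 0.494 and Spearman's rho was 0.42. The median over all probes was 0.01 on array 1 and 0.02 on array 2.

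Genes with a pair of ratios like that of Dusp4 were sought by Euclidean distance over the 2 arrays. The nearest was Rab20, a small GTPase gene, at -0.34 and -2.29 (distance 0.04). Next came Klrg1, a marker of terminal effector T cells, at -0.46 and -2.23 (distance 0.156), and Spry2, an inhibitor of RAS-ERK signalling, at -0.03 and -2.34 (distance 0.31). With 2 arrays this likeness rests on 2 values a gene.

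**Figure D2:**
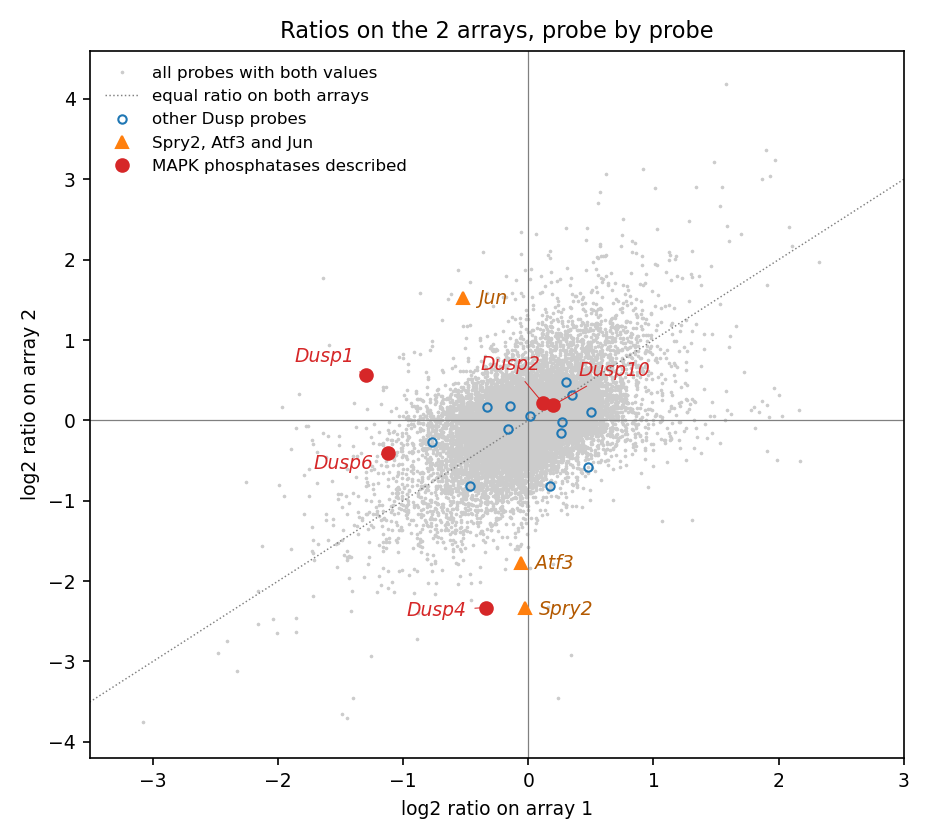
Log2 ratio on array 1 (horizontal axis) against array 2 (vertical axis) for all 21427 probes with both values (grey), the MAPK phosphatases described (filled circles), the other Dusp probes (open circles) and Spry2, Atf3 and Jun (triangles); the dotted line marks equal ratios. Dusp4 lies beside Spry2 and Atf3 far below the line and Dusp1 lies above it with Jun, while Dusp2 and Dusp10 lie within the main cloud. Jun was chosen after its values were seen.

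The other Dusp genes were measured by 13 probes of 11 genes, with means from -0.645 to 0.39, and 0 of the 13 probes reached 2-fold on either array. Of these probes 4 were positive and 3 negative on both arrays. The lowest mean was that of Dusp14, a small phosphatase without the MAPK-binding domain that dampens T cell receptor signalling, with -0.47 and -0.82 on the 2 arrays (mean -0.645 ± 0.25, SD, n = 2, limma adjusted p of 0.227). Its 2 readings lay on the same side and closer together than those of Dusp4 or Dusp6.

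Of the remaining MAPK phosphatases with a docking domain, Dusp8 and Dusp16 had probes, and Dusp7 and Dusp9 are not analysed here. Dusp16, whose enzyme acts on JNK and p38, read 0.17 and -0.82. The 2 probes of Dusp8, which encodes a related enzyme, disagreed in sign, with means of 0.05 and -0.52, and the gene is given no direction. The highest mean among the atypical members was that of Dusp28, at 0.30 and 0.48. Dusp3, the gene of the ERK and JNK phosphatase VHR, followed with 0.35 and 0.31 and Dusp21 with 0.50 and 0.11. Dusp23 (0.01 and 0.06) and Dusp22 (-0.16 and -0.11) agreed between arrays near 0. Dusp13 (0.27 and -0.02) and Dusp19 (-0.33 and 0.17) changed sign between arrays, and the 2 probes of Dusp12 each changed sign as well, with means of 0.015 and -0.05.

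The JNK and p38 kinases on which these enzymes act were compared next. The JNK genes Mapk8 and Mapk9 read 0.11 and 0.13, and -0.21 and -0.18. Mapk14, the gene of p38 alpha, read -0.34 and -0.26. Each of these 3 genes agreed closely between arrays and lay within 1.27-fold of a ratio of 1 on both.

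In the list of JNK and p38 kinases, 3 of 16 measured genes lay above 0 and 6 lay below 0 on both arrays, and 0 were at least 2-fold on both. The share positive on both arrays was 29.6% over all 14150 genes, and the share negative on both was 33.6%. At least 2-fold on both arrays were 0.233% of all genes on the positive and 0.721% on the negative side. The lowest were Map3k7, which encodes the kinase TAK1 upstream of JNK and p38, at -0.57 and -1.10, and Map2k4, which encodes an activator of JNK, at -0.52 and -0.67. The highest were Map3k1, another upstream kinase gene, at 0.38 and 0.47, and the p38 activator gene Map2k6 at 0.24 and 0.35. The median of the gene means was 0.02, while the medians on the single arrays were -0.105 and -0.07, so the list has no side.

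In the RAS-ERK list, 4 of 10 measured genes lay below 0 and 2 lay above 0 on both arrays, and the list median was -0.03. Of the 4, Braf and Sos1 are averages of 2 probes that disagreed and are given no direction. The Braf probes read 0.27 and -0.28, and -0.34 and 0.17. The Sos1 probes read -0.65 and -0.32, and 0.19 and -0.01. Lamtor3, the gene of a scaffold for ERK on late endosomes, stood lowest at -0.50 and -0.81, followed by Rasgrp1, the gene of the RAS activator downstream of the T cell receptor, at -0.22 and -0.44. The adaptor gene Grb2 stood highest at 0.33 and 0.49, and Rps6ka3, which encodes a kinase activated by ERK, read 0.39 and 0.07. Of 7 measured phosphatases from other families that act on MAP kinases, 2 were positive and 1 negative on both arrays. The positive genes were Ppm1b (0.36 and 0.17) and Ptprr (0.05 and 0.31), and the negative gene was Ppp2ca, the catalytic subunit of protein phosphatase 2A (-0.23 and -0.35). Their median was -0.04 over the gene means and 0.05 and 0.07 on the single arrays. The median over all genes was -0.02.

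The next list held other inhibitors of RAS-ERK signalling: sprouty and Spred genes, genes of RAS GTPase-activating proteins, and Dok adaptor genes. They are not all feedback genes. Of 10 measured genes, 6 (60%) lay above 0 and 2 (20%) lay below 0 on both arrays. The shares over all genes were 29.6% and 33.6%. The list median was 0.08. Of the 6, Spred1 is the average of 2 probes, at 0.08 and -0.08 and at 0.22 and 0.12. Rasa1, the gene of a GTPase-activating protein that switches RAS off, agreed closely at 0.59 and 0.60, and its relative Rasa3 read 0.53 and 0.32. The sprouty gene Spry2 read -0.03 and -2.34, and a larger gap between arrays was seen for 0.07% of probes. Its mean rests on array 2. The adaptor gene Dok2 was negative at -0.23 and -0.24. Spry4 had a value on array 1 only, 1.42, and entered no comparison.

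The next list held immediate early genes, other targets of ERK and genes of factors through which ERK acts. Of its 22 measured genes, 13 (59.1%) changed sign between arrays or read 0 on one, where the share over all genes was 36.8%. The median absolute gap between arrays was 0.475 in this list, against 0.235 over all genes. Jun, an AP-1 subunit gene chosen after its values were seen, read -0.52 and 1.52, and like Dusp1 it was negative on array 1 and positive on array 2. Genes of the list turned both ways, so this is no trait of the list. Fosl2 read -0.30 and 0.47 and Myc read 0.30 and -1.05, both also chosen after their values were seen. Atf3, a stress-induced factor gene, read -0.06 and -1.77 and so, like Dusp4, lay far from 0 on array 2 alone. Egr1, a direct target of ERK, read 0.07 and -0.32. The 2 Fos probes disagreed, with means of -0.305 and 0.11. On the same side on both arrays were 4 positive and 5 negative genes, with Fos counted as negative by the mean of its probes. The positive genes were led by Elk4, the gene of an ERK-activated ETS factor, at 0.615 and 0.71 over its 2 probes. Next came Elk1, the gene of a related factor, at 0.21 and 0.17. Both are listed because ERK acts on their proteins, so their RNA is not read as ERK output. The negative genes were led by Atf3 and then the AP-1 gene Fosl1, at -0.44 and -0.84. The list median was -0.04, with -0.02 on array 1 and 0.01 on array 2.

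**Figure D3:**
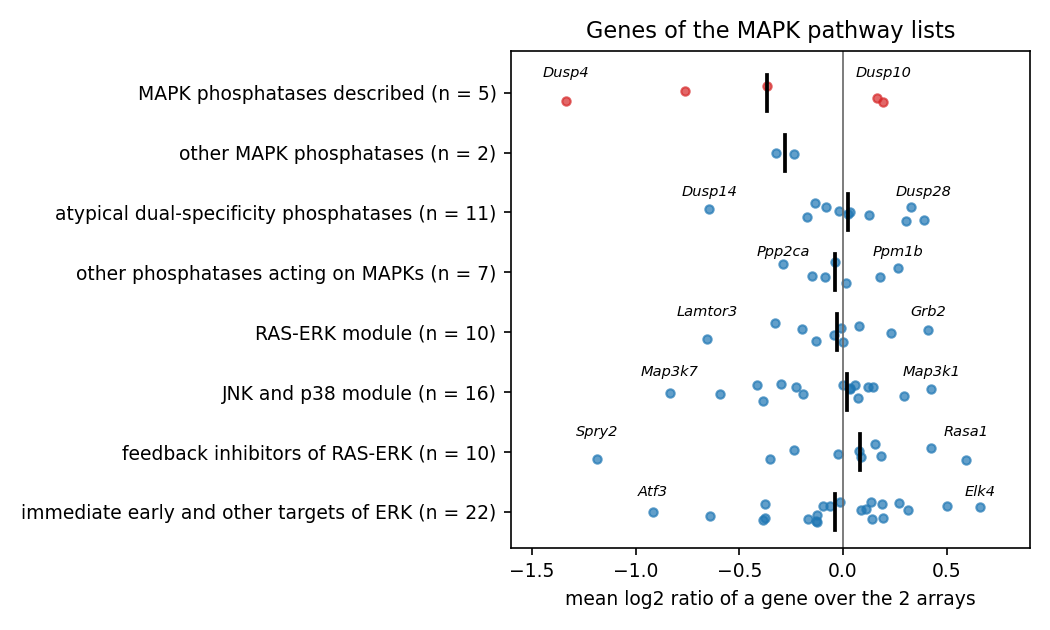
Mean log2 ratio over the 2 arrays (horizontal axis) of each measured gene of the MAPK pathway lists (rows, with the number of measured genes); each point is a gene, the black bar is the list's median, and the lowest and highest gene are named for lists of over 2 genes. Dusp4, at -1.34, and Spry2, at -1.19, have the lowest means of the genes shown. The row of feedback inhibitors also holds genes of RAS GTPase-activating proteins and adaptors.

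In limma's test 0 genes of these lists passed an adjusted p of 0.05 and 0% of all 14150 genes passed, with 16.2% of genes at an unadjusted p under 0.05. The lists were described by their counts and medians only.

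Markers of cell types were read in the same way. A ratio does not show whether a marker is expressed, so the labelled cell type could not be checked by level. Of 12 measured T cell identity genes, 9 (75%) lay above 0 and 1 (8.33%) lay below 0 on both arrays. The shares over all genes were 29.6% and 33.6%. The median of the T cell genes was 0.34, on the side of Dusp2 and Dusp10 and opposite to Dusp4 and Dusp6. The coreceptor gene Cd8a read 0.37 and 0.90 over its 2 probes. Of 9 B cell markers, 6 were positive and 1 negative on both arrays, led by Cd79b at 0.67 and 1.62. Of 9 myeloid and antigen-presenting cell markers, 3 were positive and 3 negative, and the costimulatory ligand gene Cd86 was highest at 0.79 and 1.67. Of 5 CD4 T and NK cell markers, 1 lay above 0 and 2 lay below 0 on both arrays. The NK cell receptor genes among them lay on different sides, with Klrb1c at -0.77 and -1.88, Ncr1 at -0.27 and -0.25 and Klra8 at 0.86 and 0.06. Cd4 read -0.11 and 0.02, and Foxp3 read -0.11 and 0.25. The markers given with values were chosen after these were seen. The part of these markers in the phosphatase values was not tested.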

How the data were processed

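The values are the deposited signed numbers, taken as log2 ratios of both channels. How the authors made them, from scanner and background to normalization and dyes, has no record in the labels or the table. Of 21919 probes, 340 lacked a value on array 1 and 300 on array 2. Gene symbols came from the platform annotation, which gave 15998 probes 1 symbol. The Entrez ID of 15799 of these matched a RefSeq table of GRCm38.p6, which changed 0 symbols.

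limma 3.58.1 in R 4.3.3 tested each probe's mean ratio against 0 (two-sided, 1 residual degree of freedom, prior of 3.43), with Benjamini-Hochberg adjustment over 21427 probes. List genes took the mean over their probes. Named were all Dusp genes, kinase genes fixed by name, Egr1, Fos, the 3 genes nearest to the leading phosphatase, and from each pathway list any gene 2-fold on both arrays and the 2 leading genes per side. Alternatives changed centring, normalization, the prior, thresholds and the arrays used. The fit was tested on simulated data. Members and lists were chosen with earlier results of these data known.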

Additional observations from a re-analysis of the deposited data

How the results depend on the processing

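Median centring and quantile normalization left the direction of the 5 phosphatase means as it was. Probes with 1 value kept, a robust prior and no moderation cannot change these means, as each phosphatase had both values. The phosphatases failed the test under each of these settings, in 25 of 25 recalculations. Under all of them but no moderation, 0 of all probes passed, so failing there is not particular to the phosphatases. The lowest adjusted p of a phosphatase under these settings lay between 0.211 and 0.665. Leaving out an array turned Dusp1, which was 0.57 without replicate 1 and -1.30 without replicate 2. The number of phosphatase probes at least 2-fold rose from 0 on both arrays to 1 without replicate 1 and 2 without replicate 2. Over all probes the count of 183 at least 2-fold on both arrays became 453 to 1003 on a single array, 577 read as natural logs and 880 at 1.5-fold, and with these last 2 settings the phosphatase count stayed 0. Without moderation 241 probes passed the test where limma called 0. In that setting 2 equal readings other than 0 have no spread and can pass at any size. Equal readings were held by 248 probes, and their part in the 241 was not counted, so the 241 are not read as changes. The phosphatases on the same side on both arrays numbered 4 under each centring. Of 35 recalculated list medians, 25 moved by less than the spread between arrays and 10 by more. Spread here is the SD of a list's 2 array medians. A list of 2 genes cannot exceed it when an array is left out. Lists with close array medians can exceed it by centring alone, so the tally is no measure of stability. The stages are already paired within each array's ratio, so the test of the mean ratio against 0 is the paired analysis.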
